A study of Mus musculus with 8 samples.

Results

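Proglucagon and 7 proteins of prohormone processing were followed in alphaTC6, an alpha cell line from mouse pancreas, after knockdown of the transcription factor Klf4. The 8 genes were Gcg, Pcsk1, Pcsk2, Pcsk1n, Cpe, Cpd, Pam and Furin, chosen by name among the 55536 genes of the count table. Each name matched 1 gene of the table, and 7 of the 8 had enough counts to be tested, among 16333 tested genes. Pcsk1 did not. The cells were of wild-type genotype and received either a pool of siRNAs against Klf4 (4 libraries) or a scramble siRNA as the control (4 libraries) by reverse transfection with Lipofectamine RNAiMax, for 48 h, so all 8 libraries came from transfected cells. The series describes the 4 libraries of a treatment as biological replicates. Scramble replicates 1 and 2 and Klf4 siRNA replicates 1, 2 and 4 belong to batch 1, and the other 3 libraries (scramble replicates 3 and 4, Klf4 siRNA replicate 3) to batch 2. The labels give the batches as numbers and do not say whether culture, library preparation or sequencing set them apart. An alpha cell line is a tumour-derived model that lacks the other cells of an islet.

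Peptide hormones are made as longer precursors that are cut inside the secretory granule. Proprotein convertases, serine proteases of the subtilisin family, cut after pairs of basic amino acids, carboxypeptidases then remove the basic residues left at the end, and some peptides are finally amidated. In alpha cells the convertase encoded by Pcsk2 cuts proglucagon to glucagon, whereas in intestinal L cells the convertase encoded by Pcsk1 cuts the same precursor to glucagon-like peptide 1 (GLP-1).

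The coding sequence of Gcg shows where pairs of basic codons lie, not all of which are cut. The longest annotated coding sequence, on chromosome 2 (minus strand, GRCm38), has 180 codons and holds 7 adjacent pairs of lysine or arginine codons. A first stretch of 33 codons in exon 3 (codons 51 to 83) and a second of 41 codons in exon 4 (codons 90 to 130) are shown because each carries the codons of 1 of the hormones between its outer pairs, glucagon in the first and GLP-1 in the second. Capitals mark the pairs of basic codons. The outer pairs enclose 29 codons in the first stretch and 37 in the second, and the pair inside the first lies within glucagon itself.
Gcg exon 3, chr2:62478560-62478658, minus strand: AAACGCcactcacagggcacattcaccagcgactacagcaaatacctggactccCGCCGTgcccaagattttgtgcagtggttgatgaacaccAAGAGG
Gcg exon 4, chr2:62476826-62476948, minus strand: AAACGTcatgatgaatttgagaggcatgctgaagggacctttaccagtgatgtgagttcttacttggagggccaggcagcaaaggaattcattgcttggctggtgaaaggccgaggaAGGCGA

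Because KLF factors bind boxes with the core CACCC, the promoters of the hormone gene and of both hormone convertases were also read for that word. RefSeq promoters (GRCm38.p6, 250 bases before to 50 after the start) matched 7 of the 8 genes; the exception was Cpe. Capitals mark CACCC or its reverse complement GGGTG.
Gcg promoter, chr2:62483604-62483903, minus strand: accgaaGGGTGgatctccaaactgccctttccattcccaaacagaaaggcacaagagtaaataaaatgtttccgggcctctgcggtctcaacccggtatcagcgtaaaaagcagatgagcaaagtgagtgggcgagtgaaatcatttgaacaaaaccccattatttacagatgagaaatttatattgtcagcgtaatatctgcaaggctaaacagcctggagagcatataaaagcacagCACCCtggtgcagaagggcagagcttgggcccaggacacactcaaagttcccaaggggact
Pcsk1 promoter, chr13:75089607-75089906, plus strand: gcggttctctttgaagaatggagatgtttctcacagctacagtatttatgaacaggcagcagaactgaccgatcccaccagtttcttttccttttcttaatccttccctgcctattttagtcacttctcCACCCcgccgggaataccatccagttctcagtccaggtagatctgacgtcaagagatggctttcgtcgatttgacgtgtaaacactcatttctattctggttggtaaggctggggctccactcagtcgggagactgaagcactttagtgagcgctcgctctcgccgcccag
Pcsk2 promoter, chr2:143545883-143546182, plus strand: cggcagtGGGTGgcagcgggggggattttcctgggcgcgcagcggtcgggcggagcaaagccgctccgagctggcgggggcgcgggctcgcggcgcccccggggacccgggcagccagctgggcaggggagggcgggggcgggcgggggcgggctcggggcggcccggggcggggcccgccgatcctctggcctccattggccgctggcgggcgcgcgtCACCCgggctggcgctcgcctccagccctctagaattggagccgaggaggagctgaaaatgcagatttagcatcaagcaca
The Gcg window held 2 matches, which began 244 and 11 bases before the start. That of Pcsk2 held 2 (243 and 31 bases before the start) and that of Pcsk1 held 1 (121 bases before it). A match is common: 57.5% of the 32851 promoters in the table held CACCC on either strand, and 31.5% held the longer CCACCC. Among the other genes with a promoter, Pcsk1n held 0 matches, Cpd 1, Furin 1 in each of its 2 windows and Pam 2 in each of its 2 windows. A match describes the letters of the window and is not evidence of binding.

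Library totals ran from 45954151 to 64185987 counts. Klf4, the target, had 35.1 to 46.8 CPM (counts put on one library size after TMM scaling) under scramble and 11.5 to 19.8 CPM under Klf4 siRNA, with a gap between the ranges. Among the alpha cell markers, Gc was close to absent, with at most 4 counts in a library, while Irx1, Irx2, Ttr and Slc7a2 were between 183 and 1040 CPM. Of 7 beta cell markers, Ins1, Ins2, Pdx1 and Ucn3 had 0 counts in all 8 libraries, Iapp and Slc2a2 at most 19 and 13 counts, and Mafa 2.7 to 3.76 CPM. Sst had at most 2 counts and Ppy at most 9. Of the fibroblast markers, Col1a2 had 11.8 to 21.7 CPM, Pdgfra 2.87 to 7.02 CPM and Col1a1 at most 10 counts. Of the acinar markers, Cela1 had 5.75 to 7.3 CPM, Cpa1 at most 4 counts and Prss1 and Amy2a5 0 counts. Batch separated the libraries on the first principal component, which held 59.9% of the variance.

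Proglucagon and the granule enzymes were among the abundant RNAs of these cells. Levels of different genes were compared per kilobase of annotated exon. That length is the union over all annotated transcripts of a gene (15 for Pam, 1 for Pcsk1n) and can exceed the length of the RNA present. In batch 1, Gcg had a mean of 786 CPM per kb, Pcsk2 346, Pcsk1n 249.5, Cpe 144, Pam 94.4, Furin 12.3 and Cpd 8.89 CPM per kb. In batch 2 the order was the same, with Gcg at 5664, Pcsk2 at 363, Pcsk1n at 263, Cpe at 180.0, Pam at 159, Furin at 12.1 and Cpd at 8.78 CPM per kb. The ranges over the 8 libraries of neighbours in this order did not meet except for Cpe and Pam, where Cpe ran from 141 to 185 and Pam from 84.3 to 159 CPM per kb. Within each batch Cpe was the higher of them per kilobase. The order depends on this divisor. In CPM, Pam (1122 in batch 1 and 1886 in batch 2) stood above Pcsk1n (547 and 578) and Cpe (376 and 470). Pcsk2 (2735) stood above Gcg (1174) in batch 1.

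**Figure D1:**
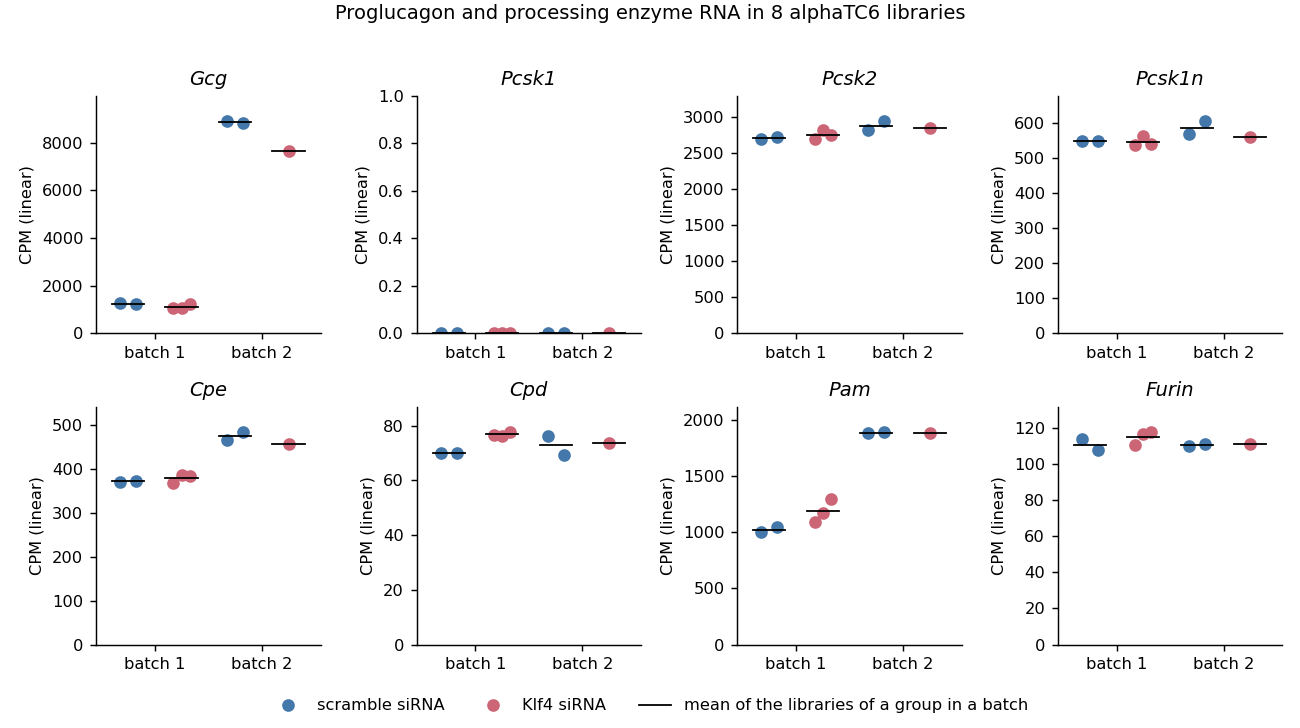
Levels of the 8 genes in each library (y axis, CPM on a linear scale from 0), with batches along the x axis, blue points for scramble and red points for Klf4 siRNA libraries and a black line at the mean of each treatment within a batch. Gcg, Pam and Cpe were higher in all 3 libraries of batch 2 than in all 5 of batch 1, Pcsk2 stayed between 2690 and 2942 CPM, and Pcsk1 had 0 counts in every library.

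Pcsk1, which encodes the convertase that releases GLP-1, was not detected. It had 0 counts in all 8 libraries, 0 of 438232869 counts in total, and its annotation (ENSMUSG00000021587, chromosome 13, 75089826 to 75134861, plus strand) overlaps no other gene. With 3 counts as the limit that a count of 0 allows in a library, its level was at most between 0.0468 and 0.0637 CPM. These limits cover counting error only. Per kilobase, Pcsk2 was at least 30300-fold higher than that limit in every library. Pcsk1 was 1 of 24258 genes of the table with 0 counts in all libraries, and no change in it could be measured.

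After Klf4 siRNA, Gcg fell slightly and none of the 6 tested processing genes passed the test in either direction. Thus 1 of 7 tested members was called, and it was lower; over all genes 11.7% were called, 6.81% lower and 4.88% higher (edgeR quasi-likelihood with batch as a term, Benjamini-Hochberg adjusted p under 0.05). The median log2 fold change of the 7 was 0.011, against 0 over all tested genes, and the median absolute change over all genes was 0.077.

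Gcg (ENSMUSG00000000394, chromosome 2, 62474530 to 62483650) encodes proglucagon, the precursor of glucagon. Its batch 1 levels were 1257 and 1244 CPM (scramble replicates 1 and 2) and 1064.5, 1074 and 1231 CPM (Klf4 siRNA replicates 1, 2 and 4). The batch 2 levels were 8913 and 8833 CPM (scramble replicates 3 and 4) and 7640.2 CPM (Klf4 siRNA replicate 3). Within each batch every Klf4 siRNA library was below every scramble library, by a narrow margin for Klf4 siRNA replicate 4. Such separation is common: in batch 1, 37.5% of all genes did not overlap between treatments, in either direction. Batch 2 has Klf4 siRNA replicate 3 alone, and the share of genes separated within both batches was not computed. The change was -0.16 on the log2 scale within batch 1 and -0.22 within batch 2. The fit put the log2 fold change at -0.18 ± 0.04 (SE; 95% interval -0.26 to -0.089, edgeR adjusted p = 0.0095). Klf4 siRNA libraries thus had 88.5% of the scramble level. The call was lost when scramble replicate 1 was left out (edgeR adjusted p = 0.052) and when Klf4 siRNA replicate 3 was (0.093). Batch 1 alone gave -0.16 with an adjusted p of 0.143. In bulk RNA, fewer cells with the transcript and less transcript per cell cannot be told apart.

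Pcsk2 (ENSMUSG00000027419, chromosome 2, 143546156 to 143816285), the convertase that makes glucagon, differed between the treatments by less than the spread of the libraries. Scramble replicates 1 to 4 had 2690.5, 2722, 2816.5 and 2942 CPM, and Klf4 siRNA replicates 1 to 4 had 2693, 2822, 2851 and 2748 CPM. The groups overlapped. The fitted change was 0.011 ± 0.030 (SE) on the log2 scale, with a 95% interval from -0.052 to 0.074 (edgeR adjusted p = 0.883). Reads of Pcsk2 and of Pcsk2os1 and Pcsk2os2, annotated on the opposite strand, could not be told apart where their exons overlap (359 of 7910 exonic bases), since the use of strand in counting was not stated. Pcsk1n (ENSMUSG00000039278, chromosome X, 7919822 to 7924410) encodes proSAAS, an inhibitor of the Pcsk1 enzyme, and was present at 549, 549.6, 567 and 605 CPM in scramble replicates 1 to 4. In Klf4 siRNA replicates 1 to 4 it had 536, 563, 561 and 539 CPM, with scramble and Klf4 siRNA libraries overlapping (log2 fold change -0.028, 95% interval -0.091 to 0.034, edgeR adjusted p = 0.639). Its exons share 135 bases with Eras on the opposite strand. The inhibitor was thus abundant where the enzyme it inhibits had 0 counts.

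Among the carboxypeptidases, Cpe (ENSMUSG00000037852, chromosome 8, 64592542 to 64693054), the main enzyme of the granule, had 369.7, 374, 467 and 484 CPM in scramble replicates 1 to 4 and 367, 386, 458 and 383 CPM in Klf4 siRNA replicates 1 to 4. The libraries of batch 2 stood above the rest whichever siRNA was given, and the fitted change with treatment was close to 0 (log2 fold change -0.0018, 95% interval -0.063 to 0.060, edgeR adjusted p = 0.984). Cpd (ENSMUSG00000020841, chromosome 11, 76778424 to 76847018), a carboxypeptidase of the trans-Golgi network, had 70.1, 69.8, 76.4 and 69.3 CPM in scramble replicates 1 to 4. It had 76.7, 76.1, 73.8 and 77.5 CPM in Klf4 siRNA replicates 1 to 4, so that scramble replicate 3 alone lay within the range of the Klf4 siRNA libraries. The log2 fold change of 0.092 (standard error 0.035, edgeR adjusted p = 0.101) did not pass the threshold, whereas it did without scramble replicate 3 (0.12, edgeR adjusted p = 0.017) and in batch 1 alone (0.13, edgeR adjusted p = 0.041).

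Pam encodes the enzyme that amidates the ends of peptides, a copper enzyme that needs ascorbate (ENSMUSG00000026335, chromosome 1, 97795114 to 98095646). Of its 11892 exonic bases, 188 are shared with overlapping annotations. Its batch 1 levels were 1002 and 1044 CPM (scramble replicates 1 and 2) and 1095, 1173 and 1297 CPM (Klf4 siRNA replicates 1, 2 and 4). The batch 2 levels were 1884 and 1892 CPM (scramble replicates 3 and 4) and 1881 CPM (Klf4 siRNA replicate 3). The Klf4 siRNA libraries were higher in batch 1, by 0.21 on the log2 scale, and differed by -0.0054 in batch 2. The fitted log2 fold change of 0.14 (standard error 0.06, 95% interval -0.005 to 0.28, edgeR adjusted p = 0.228) did not pass the threshold. It did with Klf4 siRNA replicate 3 left out, at 0.22 (edgeR adjusted p = 0.036), but not in batch 1 alone, at 0.21 (edgeR adjusted p = 0.088). The interaction of batch and treatment for Pam had an unadjusted p of 0.037 and an edgeR adjusted p of 0.999, and over all genes 0 passed, with 540 at an unadjusted p under 0.05. Furin encodes a convertase of the Golgi and cell surface that works outside the granule pathway (ENSMUSG00000030530, chromosome 7, 80388585 to 80405436). Its level ran from 108 to 114 CPM under scramble and from 111 to 118 CPM under Klf4 siRNA (fitted change 0.038, 95% interval -0.026 to 0.102, edgeR adjusted p = 0.516).

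Libraries of batch 1 did not overlap between treatments for 3 of the 7 tested genes, with Gcg lower and Cpd and Pam higher after Klf4 siRNA. This share is close to that of all genes, of which 37.5% did not overlap.

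**Figure D2:**
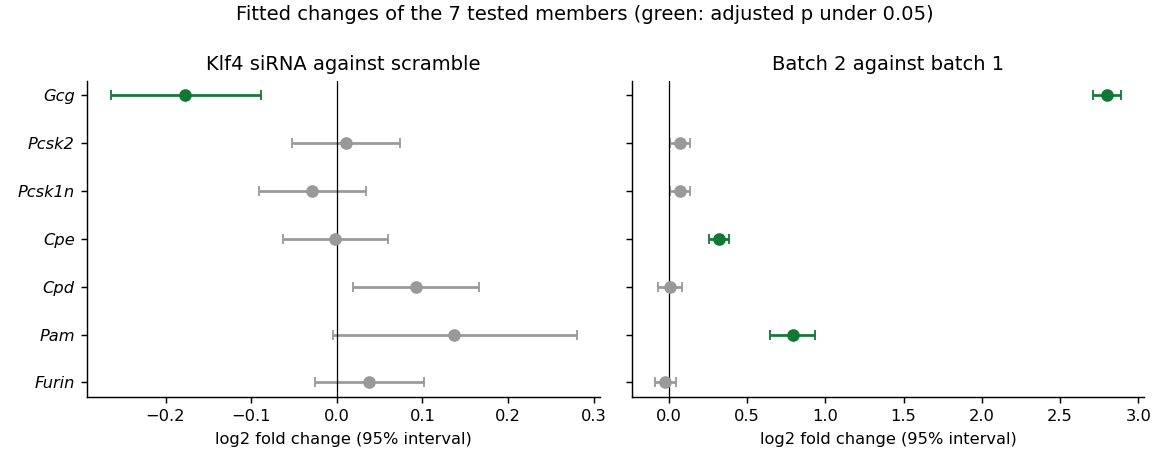
Fitted log2 fold changes (x axis) of the 7 tested genes with 95% intervals, for Klf4 siRNA against scramble on the left and batch 2 against batch 1 on the right, in green where the adjusted p was under 0.05. On the left, Gcg at -0.18 is the only green point. On the right, Gcg at 2.80, Pam at 0.79 and Cpe at 0.32 are green.

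**Figure D3:**
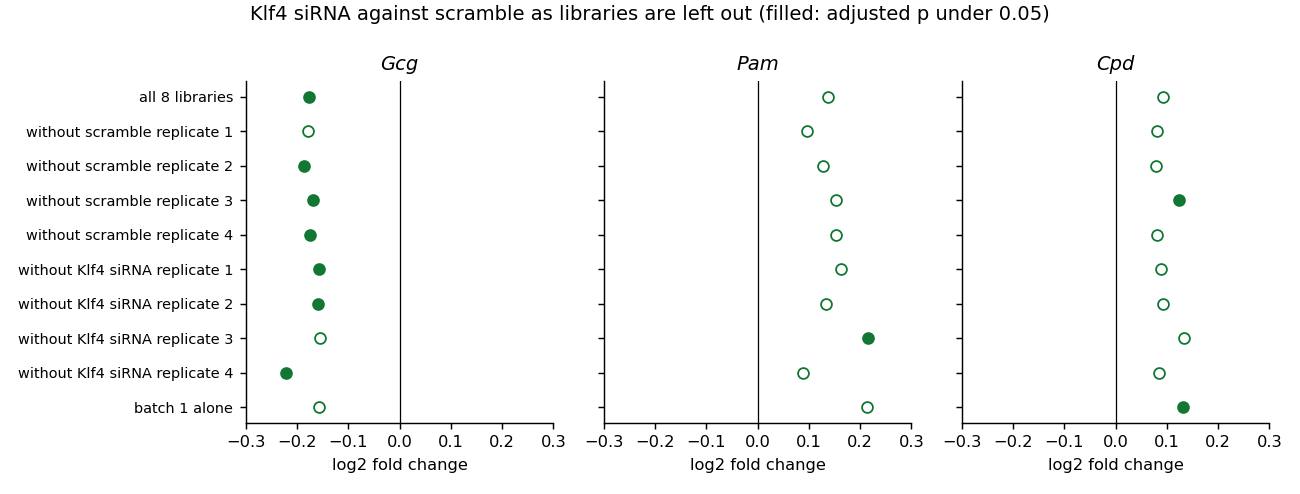
Log2 fold change after Klf4 siRNA (x axis) of Gcg, Pam and Cpd in the fit of all 8 libraries, with each library left out and in batch 1 alone (y axis), filled where the adjusted p was under 0.05. Gcg stayed between -0.22 and -0.16 and lost its call in batch 1 alone and in the fits that leave out scramble replicate 1 or Klf4 siRNA replicate 3, whereas Pam (0.088 to 0.22) and Cpd (0.078 to 0.13) gained one in some of these fits.

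Proglucagon, Pam and Cpe were higher in batch 2, whereas the other 4 tested genes did not pass the test between batches. Of the 7 tested genes, 3 were higher in batch 2 and 0 lower, while over all genes 32.7% differed between batches, 16.8% higher and 15.9% lower (edgeR, batch coefficient of the same fit). The 3 genes, Gcg, Pam and Cpe, were also higher in every library of batch 2 than in any of batch 1, which held for 15.8% of all genes. The median log2 fold change of the 7 was 0.072, against 0.0007 over all genes. As there is only batch 1 and batch 2, errors and p-values between batches measure the spread of libraries within a batch. They do not measure how batches vary.

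Gcg had a mean of 1174 ± 96.3 CPM (SD, n = 5) in batch 1 and of 8462 ± 713 CPM (SD, n = 3) in batch 2, and took 0.107% to 0.127% of the counts of a library in batch 1 and 0.756% to 0.8898% in batch 2. The fit put the log2 fold change at 2.80 ± 0.04 (SE; edgeR adjusted p = 2.17e-17), a 6.97-fold difference that placed it at rank 56 of 16333 by rise. A rise of at least 1 on the log2 scale past the threshold was found for 3.11% of all genes. Within scramble libraries the difference was 2.83 and within Klf4 siRNA libraries 2.77. Pam was 1122 ± 117 CPM (SD, n = 5) in batch 1 and 1886 ± 5.52 CPM (SD, n = 3) in batch 2, a difference of 0.79 ± 0.06 (SE) on the log2 scale (edgeR adjusted p = 1.57e-05). Cpe was 376 ± 8.22 CPM (SD, n = 5) and 469.7 ± 13.1 CPM (SD, n = 3), a difference of 0.32 ± 0.03 (SE) on the log2 scale (edgeR adjusted p = 4.71e-08).

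The remaining enzymes differed little between batches. Pcsk2 was 2735 ± 53.8 CPM (SD, n = 5) in batch 1 and 2869.8 ± 65.1 CPM (SD, n = 3) in batch 2, a log2 fold change of 0.072 with a 95% interval of 0.007 to 0.137 that missed the threshold after adjustment (edgeR adjusted p = 0.083). Pcsk1n differed by 0.070 (95% interval 0.006 to 0.135, edgeR adjusted p = 0.091). With genes of at least 5 CPM alone, both passed (edgeR adjusted p = 0.0497 for Pcsk2 and 0.047 for Pcsk1n). Pcsk2 also passed with limma-voom (adjusted p = 0.035). With a library left out, its edgeR adjusted p ran from 0.041 to 0.297. Cpd (0.0087, 95% interval -0.067 to 0.084) and Furin (-0.022, 95% interval -0.088 to 0.044) did not pass (edgeR adjusted p = 0.888 and 0.650). The ratio of Gcg to Pcsk2 counts, which does not depend on library scaling, was 0.381 to 0.467 in batch 1 and 2.68 to 3.16 in batch 2. Its log2 value differed by 2.73 between batches, with p = 0.042 in a two-sided exact permutation test within treatment (24 arrangements), the smallest p this design allows. Between treatments it differed by -0.19 with p = 0.067 (two-sided exact permutation test within batch, 30 arrangements, smallest possible p 0.033).

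Ratios of counts within a library, chosen after the values were seen and given without a test, describe how closely the granule genes track Pcsk2. Pcsk1n stood at 20.4%, 20.2%, 20.1% and 20.6% of the Pcsk2 counts in scramble replicates 1 to 4 and at 19.91%, 19.94%, 19.7% and 19.6% in Klf4 siRNA replicates 1 to 4. The treatments did not overlap although the 8 values spanned 19.6% to 20.6%; over all tested genes, 7.76% had a ratio to Pcsk2 that did not overlap between treatments. Cpe stood at 13.6% to 13.95% of the Pcsk2 counts in batch 1 and at 16.1% to 16.6% in batch 2. Pam stood at 37.25% to 47.2% in batch 1 and 64.3% to 66.9% in batch 2.

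The marker lists of other cell types that differed between batches were those of duct cells, whose summed level was 1.07 to 1.57 CPM in batch 1 and 3.74 to 4.63 CPM in batch 2, and of immune cells, at 1.56 to 1.66 and 2.0 to 2.5 CPM. Sox9 made up nearly all of the duct sum, Cftr had 0 counts and Krt19 at most 2. Cd68 made up nearly all of the immune sum, and Ptprc had at most 1 count. Each sum thus rests on a single gene and does not show that duct or immune cells were present. Any part of such cells in the differences between batches was not tested.

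**Figure D4:**
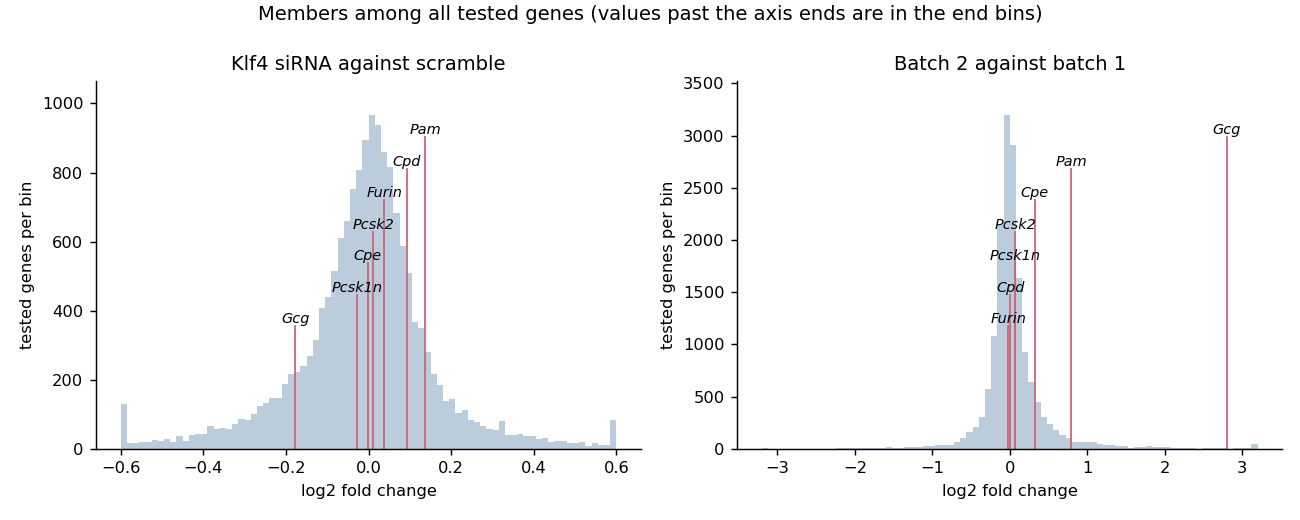
Distribution of log2 fold changes (x axis) over the 16333 tested genes (y axis, genes per bin), with red lines at the 7 tested genes, for Klf4 siRNA against scramble on the left and batch 2 against batch 1 on the right. On the left all 7 lie between -0.18 and 0.14, within the bulk of genes. On the right Gcg at 2.80 lies far in the upper tail, Pam at 0.79 outside the bulk and the other 5 at most at 0.32.

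Other genes of the pathway were read from 4 lists. Of 6 further convertases, 5 were tested and 1 changed after Klf4 siRNA (0 higher, 1 lower), against 11.7% of all genes. This was Mbtps1, the site-1 protease that activates SREBP factors in the Golgi, at -0.13 ± 0.03 (SE) on the log2 scale (edgeR adjusted p = 0.0018). The median of the list was -0.039. Between batches 0 of the 5 passed (edgeR), against 32.7% of all genes.

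Of 18 helpers and other processing enzymes, 17 were in the table and 14 were tested. After Klf4 siRNA 1 rose and 5 fell, with a list median of -0.055, while over all genes 4.88% were called higher and 6.81% lower. Slc31a1, the copper importer of the plasma membrane, rose by 0.21 ± 0.03 (SE, log2 scale; edgeR adjusted p = 0.00020). Cpm, a carboxypeptidase of the cell surface, fell from 9.64 to 7.28 CPM in the means of the treatments, a log2 fold change of -0.41 (standard error 0.08, edgeR adjusted p = 0.0020). Rnpep, aminopeptidase B, which trims basic residues from the front of peptides, fell by 0.22 on the log2 scale (edgeR adjusted p = 0.0023). The other 3 that fell lay outside the rule for naming and are named because they are few: the cathepsin genes Ctsl and Ctsb, at -0.15 and -0.11, and Qpctl, a glutaminyl cyclase of the Golgi, at -0.13 (edgeR adjusted p = 0.0030, 0.019 and 0.042). With a library left out, Ctsb kept a log2 fold change of -0.12 to -0.09 but missed the threshold in 4 of 8 fits (without scramble replicate 1 or 2 or Klf4 siRNA replicate 1 or 3, adjusted p = 0.053, 0.111, 0.061 and 0.140). Qpctl kept -0.14 to -0.11 and missed it in 6 of 8 fits (adjusted p up to 0.179), all except those without scramble replicate 4 or Klf4 siRNA replicate 4.

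Between batches, 7 of these 14 were higher in batch 2 and 1 lower, with a median of 0.138, while over all genes 16.8% were called higher and 15.9% lower. Cyb561, the granule membrane protein that passes electrons to ascorbate for Pam, was higher by 0.38 (standard error 0.03, edgeR adjusted p = 1.25e-08), Ctsb by 0.30 and Ctsl by 0.28 (edgeR adjusted p = 8.60e-08 and 5.42e-07). Scg5, the chaperone of the Pcsk2 enzyme, was named after its values were seen: it was higher by 0.29 (edgeR adjusted p = 6.98e-07), whereas Pcsk2 differed by 0.072. The lower gene, also named after its values were seen, was Atp7a, a copper transporter of the Golgi, at -0.38 ± 0.10 (SE; edgeR adjusted p = 0.0059), with 7.42 to 9.04 CPM in batch 1 and 4.77 to 6.76 CPM in batch 2. In scramble libraries alone its adjusted p was 0.059. The interaction of batch and treatment passed for none of the genes in these lists (edgeR, 0 of 16333 genes).

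Of 30 other peptide hormone precursors 8 were tested, and 0 passed after Klf4 siRNA (edgeR), against 11.7% of all genes. Between batches 3 were higher and 2 lower, against 16.8% and 15.9% of all genes. Nucb2, the precursor of nesfatin, was higher in batch 2 by 0.50 on the log2 scale (edgeR adjusted p = 9.63e-07). Calca, the calcitonin gene, had a log2 fold change of -0.52 and Cck, the cholecystokinin gene, of -2.12, with at most 23 counts of Cck in any library (edgeR adjusted p = 0.0042 and 0.00053). The libraries of batch 1 held 11 to 23 counts of Cck and those of batch 2 held 2 to 6. Cck thus passed the filter through batch 1 alone, where it was higher. Its p between batches depends on that pattern, and no conclusion is drawn from it, although Cck is among the 2 counted as lower. Penk, the proenkephalin gene, was singled out after its counts were seen. It had 5, 0, 7, 9 and 1 counts in the libraries of batch 1 (scramble replicates 1 and 2, then Klf4 siRNA replicates 1, 2 and 4) and 1920, 1938 and 1618 counts in those of batch 2 (scramble replicates 3 and 4, then Klf4 siRNA replicate 3), or 29.96, 33.5 and 30.7 CPM there. The filter on treatment groups had left it out because it had more than 9 counts in 3 libraries only. Since it was singled out for this pattern, no test is given.

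**Figure D5:**
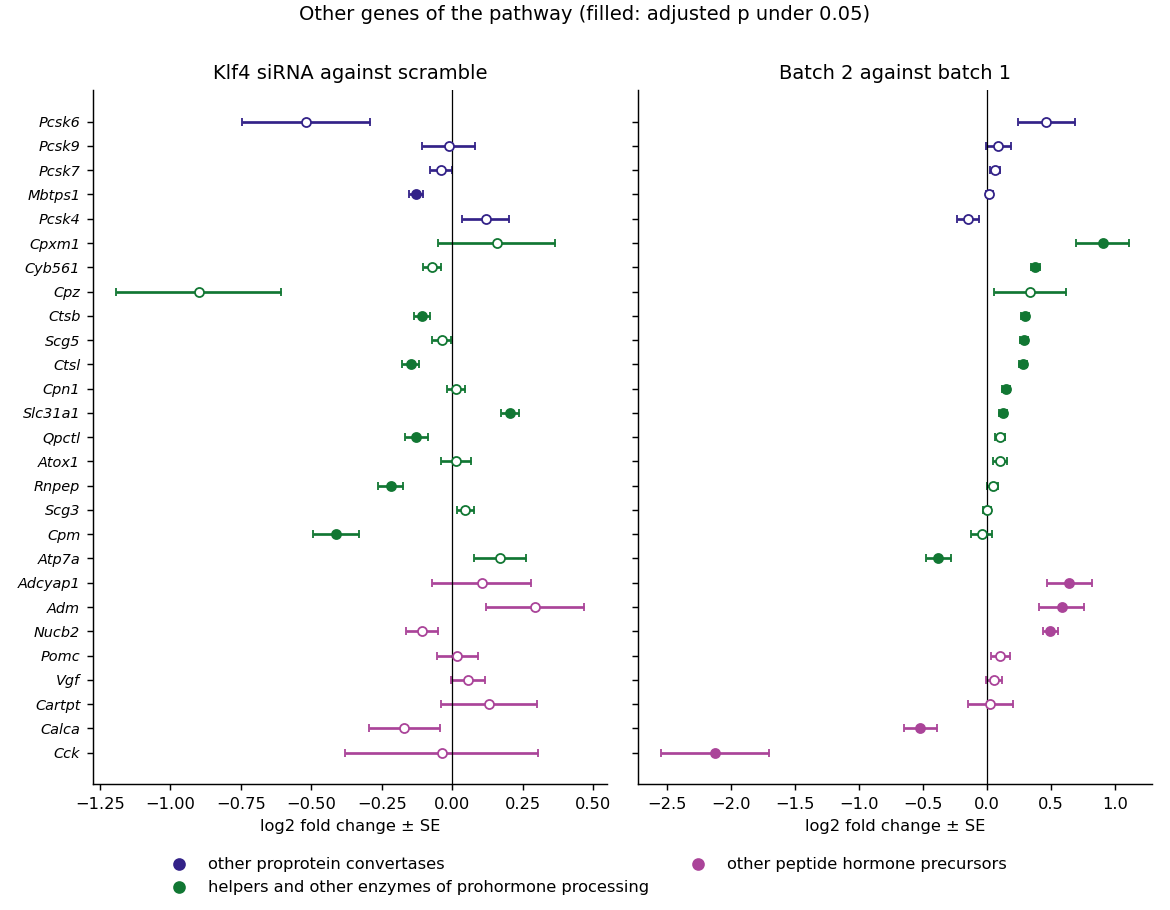
Log2 fold changes with standard errors (x axis) of the tested genes of 3 lists, the further convertases, the helpers and the other hormone precursors (y axis, coloured by list), after Klf4 siRNA on the left and for batch 2 against batch 1 on the right, filled where the adjusted p was under 0.05. Slc31a1 at 0.21 is the only filled point above 0 on the left, and on the right Cyb561, Ctsb, Scg5 and Ctsl are filled points between 0.28 and 0.38.

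Of 13 factors known to act on the Gcg gene, 11 were tested, while Foxa1 and Cdx2 had 0 counts. After Klf4 siRNA 2 rose and 2 fell, against 4.88% and 6.81% of all genes, with a median of -0.009. Neurod1, a basic helix-loop-helix factor of endocrine cells, rose by 0.41 ± 0.06 (SE, log2 scale; edgeR adjusted p = 0.0011). Pax6, a homeobox factor that binds the Gcg promoter, was the other gene that rose, outside the rule for naming, by 0.10 on the log2 scale (edgeR adjusted p = 0.026). With a library left out, Pax6 kept a log2 fold change of 0.088 to 0.13 but missed the threshold in 4 of 8 fits (without scramble replicate 1 or 2 or Klf4 siRNA replicate 1 or 3, adjusted p = 0.055, 0.180, 0.080 and 0.119). In batch 2, in which Gcg was higher, 0 of the 11 were higher and 3 were lower, against 16.8% and 15.9% of all genes. Among the lower were Pou3f4 at a log2 fold change of -0.16 and Foxa2 at -0.14 (edgeR adjusted p = 0.00021 and 0.0042). Foxa2 missed the threshold when Klf4 siRNA replicate 3 was left out (edgeR adjusted p = 0.141).

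The genes whose pattern over the 8 libraries was most like that of Gcg were taken from 9348 genes with a mean of at least 10 CPM over the 8 libraries, by the root mean square difference of log2 CPM after each gene was centred on its own mean. They were Nrcam (0.338), Csn3 (0.361), Slc4a10 (0.396), Rian (0.400) and Ntn1 (0.418). Nrcam, a neural cell adhesion molecule, had 10.98 to 13.5 CPM in batch 1 and 49.6 to 63.4 CPM in batch 2. Csn3, Slc4a10, Rian and Ntn1 were at 4.04 to 7.69 CPM in batch 1 and passed that minimum through batch 2, where they were higher. All 5 shared the step between batches, with log2 fold changes of 1.99 to 2.15, smaller than the 2.80 of Gcg. None of the 5 passed the test after Klf4 siRNA (edgeR adjusted p from 0.061 to 0.936). The likeness rests on the step between batches, which these genes share with Gcg.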

How the data were processed

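Poly(A) RNA of 8 libraries was read from 1 table. The deposited values are raw counts per gene made by the authors; the submitters' processing notes list FastQC, STAR, featureCounts and DESeq2 and the build mm10, and the table's name speaks of cutadapt trimming. The use of strand is not given in the sources used here. The labels' extraction text names islets, while each sample is labelled alphaTC6. All 55536 identifiers and symbols matched GENCODE M21 (GRCm38), used for positions and exon lengths. The members and lists were chosen with earlier results of these data known.

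Genes were kept with filterByExpr on treatment (16333 kept), scaled by TMM and fitted with batch and treatment in edgeR 4.0.16 (R 4.3.3), by a robust quasi-likelihood test with 5 residual degrees of freedom, Benjamini-Hochberg adjustment over all genes and a threshold of 0.05. Each standard error (SE) was taken as the size of the log2 fold change over the root of F. The 95% intervals are not adjusted. Within-batch log2 values use a prior count of 2. No molecular identifiers are described, so PCR copies may be counted. Library pairs differed beyond sampling noise (chi-square per degree of freedom of at least 10.2), so none was merged. From each list, at most 3 called genes with the smallest adjusted p per comparison were named. The fit was first tested on simulated counts. Alternatives used limma 3.58.1 and DESeq2 1.42.0, other filters and scalings, and left-out libraries. Planned ratios to Pcsk1 could not be formed, since it had 0 counts. Some called genes of the lists are not reported here.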

Additional observations from a re-analysis of the deposited data

Results flagged for a closer look

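The levels of the 7 detected genes and of part of the called list genes were examined in each treatment, with 4 libraries in a group. Of 52 such groups, 2 had a library whose gap to its nearest neighbour took an unusually large share of the group's range. Chance gives about 1 in 20 for 4 libraries of like origin. That rate does not hold here, since each group spans both batches. For Gcg, Klf4 siRNA replicate 3 was the highest of the Klf4 siRNA libraries, with a gap of 0.975 of the range; it is the single Klf4 siRNA library of batch 2. For Cpd, scramble replicate 3 was the highest of the scramble libraries, with a gap of 0.880 of the range between 69.3 and 76.4 CPM.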

How the results depend on the processing

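The higher levels of Gcg, Pam and Cpe in batch 2 kept their direction and their call under every alternative fitted; over left-out libraries their log2 fold changes ran from 2.79 to 2.83, from 0.75 to 0.88 and from 0.30 to 0.36. After Klf4 siRNA, 2 members were called with no filter (Pam at 0.14, adjusted p = 0.0024), 0 without a batch term (Gcg -0.88, adjusted p = 0.756, Pam -0.097, Pcsk2 -0.007), and between 0 and 2 with a library left out. Between batches 5 members were called among genes of at least 5 CPM, and 3 to 4 with a library left out. Over all genes, Klf4 siRNA gave 997 calls at an adjusted p under 0.01, 409 without a batch term, 1232 in batch 1 alone and 934 to 2021 with a library left out (934 without scramble replicate 1, 1012 without scramble replicate 2, 1232 without Klf4 siRNA replicate 3). The interaction gave 0 to 13 genes, 13 without scramble replicate 3, and 0 members. Changes near 0 switched sign. Cpd between batches was -0.029 with library totals alone, -0.018 without a treatment term and -0.04 to 0.059 with a library left out. Cpe after Klf4 siRNA was 0.025 in batch 1 alone and -0.015 to 0.027 with a library left out, and Pcsk2 -0.001 to 0.026. The log2 ratio of Gcg to Pcsk2 between batches was 2.704 to 2.763 with a library left out, where the exact permutation p rose to 0.056 to 0.083 because fewer arrangements remain; it could not be computed without Klf4 siRNA replicate 3.

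Same-numbered libraries deviated from their treatment means with correlations of 0.492, 0.416, 0.720 and -0.340, which batch can set, since pairs 1 to 3 each share a batch and the libraries numbered 4 do not. After a fit of batch and treatment the correlations were -0.001, -0.040, -0.302 and 0.116, and 0 of 4 scramble libraries correlated best with its own number, although residuals of so few libraries in a batch are tied to each other. The numbers were not taken to pair the samples. With a replicate block in place of batch, which leaves the libraries numbered 4 in different batches, 1220 genes and 0 members were called (Gcg -0.82, adjusted p = 0.552, Pam -0.062, Pcsk2 -0.007). With the replicate block and a batch term together, chosen after the results were seen and with few residual degrees of freedom, 3120 genes and 2 members were called (Gcg -0.225, adjusted p = 2.29e-14, and Pam 0.097, adjusted p = 0.0029), and Cpe was 0.002.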

Other observations

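Of the 30 other hormone precursors, Vgf had 24115 to 32527 counts per library and Pomc 307 to 425. Ins1, Ins2, Pyy, Crh and Ucn3 had 0 counts in all 8 libraries.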
